A study of Homo sapiens with 30 samples.

Results

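Regions with a called peak of open chromatin on day 2 of a human neural differentiation course, and with none before or after it, were gathered by position. Peaks of all 10 peak lists on chromosomes 1 to 22 were merged where they shared at least 1 bp, which gave 476170 merged regions, and a list was called open at a region where it had a peak. The members were chosen by openness alone: a region had to be open in anterior neural ectoderm (aNE), posterior neural ectoderm (pNE) or both, and in none of the other 8 lists. This selected 6541 regions. Of these, 2431 were open in aNE alone, 3972 in pNE alone and 138 in both. The numbers of regions in the 3 groups therefore follow from the rule and are given as a description.

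All cells were wild-type H1, an established line of human embryonic stem cells, so every population comes from 1 genotype. The undifferentiated cells (hPSC) were taken on day 0. Definitive ectoderm (DE) was taken on day 1, after a day with A8301 at 1 µM and LDN193189 at 100 nM, which block NODAL and BMP receptor signalling, the MEK inhibitor Trametinib at 250 nM and the WNT secretion inhibitor C59. Both day 2 populations came from DE cells that were replated in the rho kinase inhibitor Thiazovivin with A8301 and LDN193189 kept in the medium. For aNE the medium also held C59 at 1 µM. For pNE it held instead the retinoic acid receptor agonist TTNPB at 50 nM, FGF2 at 20 ng/mL and the tankyrase inhibitor XAV939 at 1 µM, which dampens WNT signalling. Either population was then carried to day 4 in telencephalon, midbrain or hindbrain medium, which gave aNE_T, aNE_M and aNE_H and, from pNE, pNE_T, pNE_M and pNE_H. Cells taken on day 2 had been plated at 37500 per square cm, whereas those taken on day 4 had been plated at 75000 (aNE descendants) or 150000 (pNE descendants), so the day and the density cannot be told apart. The labels give 3 biological replicates in each of the 10 populations.

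Open chromatin was measured by OmniATAC-seq from 50000 cells per library, and in this assay a transposase, Tn5, cuts and tags DNA that nucleosomes leave exposed. Each population has 1 peak list with positions and no score, fold or value per library. No result below has a replicate error and no test was possible. Differences are between lists, read depth is unknown, and the Wilson 95% intervals given cover the number of regions only. Gene expression was not analysed here, so the identity of the populations was not checked against marker RNA.

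Neural ectoderm is laid down from pluripotent cells when BMP and NODAL signals are held off. It takes on an anterior identity by default, and retinoic acid, FGF and WNT signals turn it toward hindbrain and spinal cord, in part through the HOX genes. Regulatory DNA opens where transcription factors displace nucleosomes. Elements that open at an intermediate step can close again as cells move on, and many such elements lie far from gene starts.

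The sequences that could be shown belong to the few members that overlapped the promoter window of a protein-coding gene. Such windows were the longest reference sequence used here, and not all of these members covered the gene start itself. RefSeq windows (GRCh38.p14) ran from 250 bases before a gene start to 50 after it. The 250 bases before the start are printed 5′ to 3′ on the strand of the gene, with the bases inside the day 2 peak in capitals. Members with the largest overlap in each group come first. In the aNE alone group these were LACTBL1 at chr1:22972841-22973039, SHTN1, which encodes a protein of neuronal polarity, at chr10:117126507-117126724, and SLC11A2, the iron transporter DMT1, at chr12:51009261-51009429.
LACTBL1: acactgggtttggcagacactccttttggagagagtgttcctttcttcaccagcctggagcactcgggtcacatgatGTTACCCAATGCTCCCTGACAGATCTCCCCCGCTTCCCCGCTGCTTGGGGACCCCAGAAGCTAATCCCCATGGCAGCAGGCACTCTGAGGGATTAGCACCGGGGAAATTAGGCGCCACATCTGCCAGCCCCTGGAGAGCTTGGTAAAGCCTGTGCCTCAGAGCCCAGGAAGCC
SHTN1: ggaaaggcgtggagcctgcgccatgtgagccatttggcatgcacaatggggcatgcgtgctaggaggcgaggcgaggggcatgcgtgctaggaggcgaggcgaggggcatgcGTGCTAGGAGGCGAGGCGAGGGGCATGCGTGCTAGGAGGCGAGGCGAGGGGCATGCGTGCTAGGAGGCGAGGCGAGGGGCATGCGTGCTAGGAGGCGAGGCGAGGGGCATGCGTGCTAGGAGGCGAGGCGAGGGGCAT
SLC11A2: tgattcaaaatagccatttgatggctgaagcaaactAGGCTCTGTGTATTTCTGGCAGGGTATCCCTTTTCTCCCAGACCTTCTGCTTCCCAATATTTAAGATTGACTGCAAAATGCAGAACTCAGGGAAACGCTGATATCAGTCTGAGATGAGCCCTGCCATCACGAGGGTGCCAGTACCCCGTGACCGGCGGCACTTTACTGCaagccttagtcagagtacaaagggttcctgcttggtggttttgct

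In the pNE alone group the largest overlaps were at NCR2, a receptor of natural killer cells, at chr6:41335406-41335616, at CTAGE6 at chr7:143757702-143757846, and at CTNNA1, which encodes alpha-catenin. The CTNNA1 region, chr5:138875249-138875392, also covered the start of LRRTM2 on the opposite strand, and its window is not printed because it runs past another start of CTNNA1. In the group open in both day 2 lists, 1 region reached a promoter window, that of the organic anion transporter SLC22A7, at chr6:43297974-43298208.
NCR2: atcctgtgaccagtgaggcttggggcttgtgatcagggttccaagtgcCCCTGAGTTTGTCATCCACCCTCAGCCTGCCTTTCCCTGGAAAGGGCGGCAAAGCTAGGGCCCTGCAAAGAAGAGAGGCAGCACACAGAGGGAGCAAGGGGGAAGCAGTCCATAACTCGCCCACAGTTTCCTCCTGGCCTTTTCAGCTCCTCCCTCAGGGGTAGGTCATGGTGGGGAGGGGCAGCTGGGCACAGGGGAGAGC
CTAGE6: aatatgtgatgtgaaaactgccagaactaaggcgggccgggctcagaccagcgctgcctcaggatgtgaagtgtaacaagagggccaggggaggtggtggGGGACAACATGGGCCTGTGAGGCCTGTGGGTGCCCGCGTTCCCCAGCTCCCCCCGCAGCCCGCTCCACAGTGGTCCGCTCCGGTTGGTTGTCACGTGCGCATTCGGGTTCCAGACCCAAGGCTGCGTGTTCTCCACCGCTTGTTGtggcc
SLC22A7: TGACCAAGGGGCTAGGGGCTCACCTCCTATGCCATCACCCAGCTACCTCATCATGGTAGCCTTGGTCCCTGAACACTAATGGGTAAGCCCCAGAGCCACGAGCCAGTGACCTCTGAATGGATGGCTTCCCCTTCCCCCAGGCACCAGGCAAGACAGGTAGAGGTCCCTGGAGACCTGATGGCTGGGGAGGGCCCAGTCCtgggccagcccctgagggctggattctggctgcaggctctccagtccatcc

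A further pair from the aNE alone group was picked after its values were seen, for its gene and its sequence. STRA6 encodes the membrane receptor that takes up retinol from its carrier in blood, and its region lay at chr15:74212173-74212306. The ADPRHL1 region, at chr13:113449198-113449337, lay in a run of repeats.
STRA6: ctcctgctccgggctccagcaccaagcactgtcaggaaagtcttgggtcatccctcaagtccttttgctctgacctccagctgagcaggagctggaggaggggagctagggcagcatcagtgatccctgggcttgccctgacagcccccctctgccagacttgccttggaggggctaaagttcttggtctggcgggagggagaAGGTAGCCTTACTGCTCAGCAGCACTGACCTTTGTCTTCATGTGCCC
ADPRHL1: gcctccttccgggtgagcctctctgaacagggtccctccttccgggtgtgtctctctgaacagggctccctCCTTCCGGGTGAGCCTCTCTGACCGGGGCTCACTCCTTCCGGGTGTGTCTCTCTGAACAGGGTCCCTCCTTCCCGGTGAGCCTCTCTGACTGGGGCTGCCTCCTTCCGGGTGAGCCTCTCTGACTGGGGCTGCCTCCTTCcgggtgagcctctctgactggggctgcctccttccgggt

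Regions found in 1 list only were rarest in the day 2 lists. The aNE list was open at 152250 regions, of which the 2431 open nowhere else made up 1.60% (1.53 to 1.66). The pNE list was open at 186425 regions, and the 3972 found there alone made up 2.13% (2.07 to 2.20). Among the other lists this share ran from 3.08% in aNE_M to 17.3% in pNE_H, with 11.3% in hPSC and 11.7% in DE. The day 2 lists have neighbours in the series on both sides in time, and pNE_H is also the longest list, with 302355 peaks against 162041 in aNE and 199638 in pNE. When every list was cut to its 162041 widest peaks, the shares became 3.95% in aNE, 2.57% in pNE and 3.03% in aNE_M, and aNE then ranked 3 counted from the lowest. That cut leaves the aNE list whole and takes the narrowest peaks from the others, which in part raises the aNE share.

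**Figure D1:**
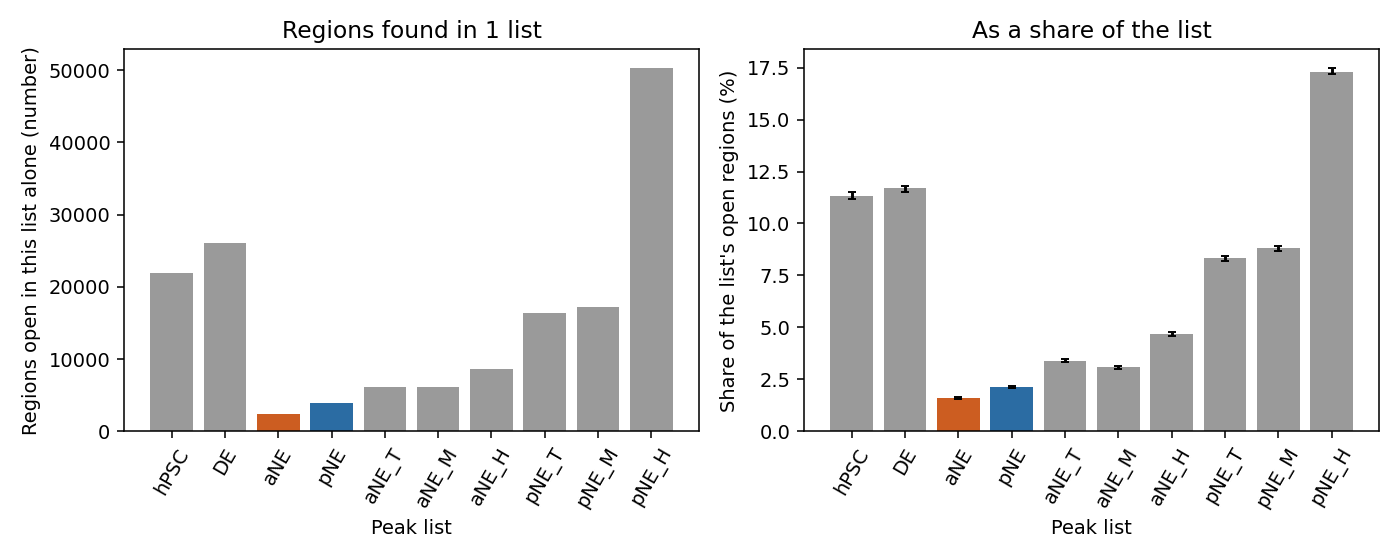
Regions open in a single list, by peak list, as a number (left) and as a percentage of the regions open in that list (right). Bars are 1 list each, error bars are Wilson 95% intervals, and aNE and pNE are coloured. The day 2 lists have the lowest bars in both panels, at 1.60% and 2.13%.

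The day 2 lists shared few regions that no other list held. They were open together at 125817 regions, and 138 of these, or 0.110%, were in no other list. Over the 45 pairs of lists, the number of regions open in exactly that pair had a median of 625 and ran from 75 (aNE with pNE_M) to 13635 (pNE_T with pNE_H). The aNE and pNE pair was the fourth lowest. Within the 138 regions the aNE peak had a median width of 180 bp and the pNE peak 166 bp. The aNE peak was the wider in 77 regions and the pNE peak in 59. Their midpoints lay a median of 43.8 bp apart. In 79 regions the shared stretch covered at least 80% of the narrower peak, while in 27 it covered under 50%. The smallest shared stretch was 4 bp.

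Most regions that opened on day 2 were also open in some day 4 list, and this share was smaller on the anterior side. Day 4 lists of both origins count here. A region open in such a list need not be open in descendants of the cells that had it on day 2. Of 6084 regions open in aNE and not in pNE, hPSC or DE, 40.0% (38.7 to 41.2) were in none of the 6 day 4 lists, and 1.41% were in all 6. Of 32566 such regions open in pNE and not in aNE, 12.2% (11.8 to 12.6) were in no day 4 list and 9.08% were in all 6. Where both day 2 lists were open at a region that hPSC and DE lacked, 2.36% (2.00 to 2.78) of 5842 were in no day 4 list and 30.3% were in all 6. Of the 3653 aNE regions that were in some day 4 list, 53.1% were in pNE_H and 52.9% in aNE_T, and the lowest share was in aNE_H (25.1%). Of the 28594 such pNE regions, 78.4% were in pNE_H, 66.9% in aNE_M and 64.6% in aNE_H, and the lowest share was in aNE_T (31.7%). Longer lists hold more regions of any kind, so these shares are not corrected for list length.

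Near misses were counted as regions open on day 2 and in exactly 1 of the other 8 lists. On the aNE side there were 3760, and DE, the population these cells came from, was the further list in 2082 of them, or 55.4%. The next were aNE_T with 465 and hPSC with 449. On the pNE side there were 5000. There pNE_H was the further list in 1718, or 34.4%, followed by aNE_H with 810 and aNE_M with 625, while DE accounted for 609. Of 456 regions open in both day 2 lists and 1 more, DE held 190 and pNE_H 73. Membership often turned on 1 list: without DE the set would gain 2881 regions, and without pNE_H 2109.

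**Figure D2:**
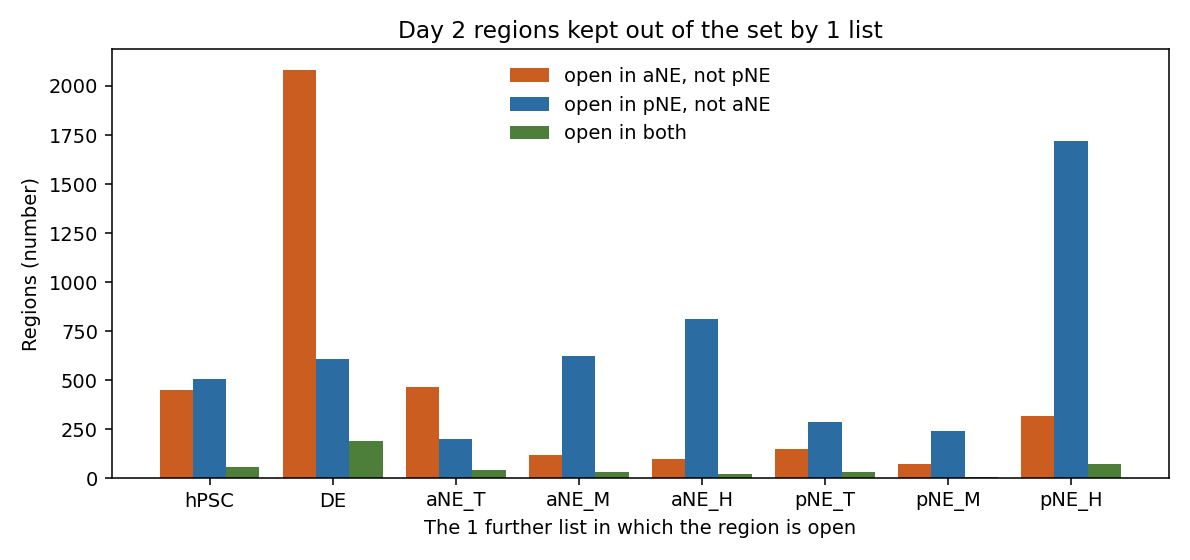
Number of regions open on day 2 and in exactly 1 further list, by that list. Bars are regions open in aNE and not pNE, in pNE and not aNE, or in both. The tallest bars are DE for the aNE side, at 2082, and pNE_H for the pNE side, at 1718.

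The edge of the rule was also a matter of few bases for some regions. Of the 6541 members, 87 lay within 10 bp of a peak of the other 8 lists and 373 within 50 bp. Just outside, 106 regions that failed the rule had a day 2 peak that shared at most 10 bp with such a peak, and 716 shared at most 50 bp.

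Day 2 only regions were narrow. The median width was 156 bp in the aNE alone group, 149 bp in the pNE alone group and 240 bp where both lists were open, against 306 bp over all regions and 871 bp for regions open in all 10 lists. The 37951 regions that opened on day 2 and were open in at least 1 day 4 list of either origin, called kept here, had a median of 378 bp. Width is tied to membership, since a wider region has more chances to meet a peak of another list. Regions found in 1 other list were similar, with medians of 154 bp in hPSC, 157 bp in DE and 165 bp in pNE_H. The widest members reached 641, 633 and 556 bp in the 3 groups, which in all covered 422, 656 and 35.9 kb.

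Many members sat at the narrowest width their list contains. In aNE, 545 of the 2431 regions (22.4%) were exactly 125 bp wide, the narrowest peak of that list, a width held by 3.75% of all aNE peaks. In pNE, 1020 of the 3972 (25.7%) were at the narrowest width of 124 bp, against 4.41% of all pNE peaks. In the other lists between 10.4% and 19.8% of the regions found there alone were at the narrowest width. By width, 6.04% of aNE peaks up to 150 bp were in the set, and 0.0168% (8 of 47593) of those over 500 bp. For pNE the shares were 7.77% and 0.00584% (3 of 51347). Without scores it was not tested whether these narrow peaks were also weak.

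**Figure D3:**
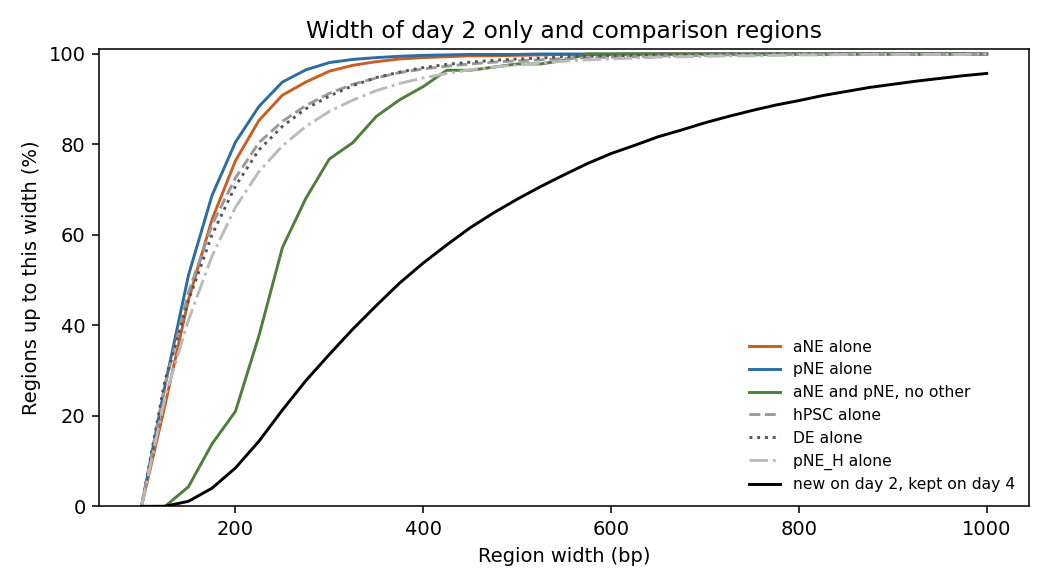
Cumulative share of regions (%) by region width (bp) for the 3 day 2 only groups, for regions found in hPSC, DE or pNE_H alone, and for regions opened on day 2 and kept on day 4. The single-list curves lie close together, with medians from 149 to 165 bp, and the kept regions lie far to the right, with a median of 378 bp.

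Members lay close to chromatin that other populations also had open. The nearest peak of the remaining lists was a median of 571 bp away from aNE alone regions, 698 bp from pNE alone regions and 482 bp from regions open in both. It was within 1 kb for 61.5% (59.5 to 63.4), 56.7% (55.1 to 58.2) and 68.1% (59.9 to 75.3). Regions found alone in another list were within 1 kb of a peak of the remaining lists in 39.4% (pNE_M) to 53.7% (aNE_M). The aNE and pNE groups ranked first and second of the 10 lists in this respect, and they held the top ranks, in either order, under each of the 6 alternatives that rebuilt the regions. For aNE alone regions the list that was most often within 1 kb was DE (41.0%), and for pNE alone regions it was pNE_H (38.6%). These are also the 2 longest lists.

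**Figure D4:**
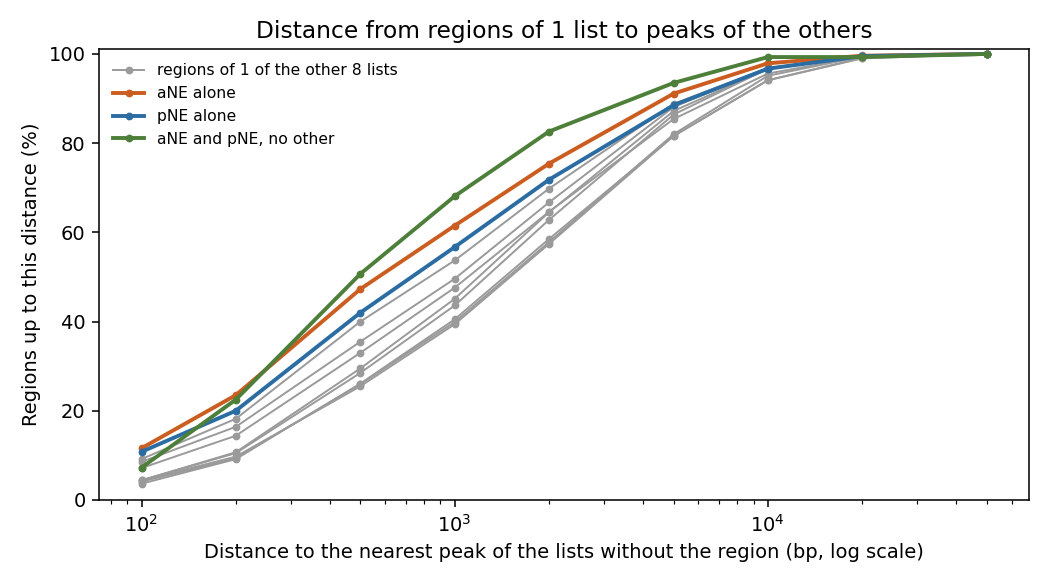
Cumulative share of regions (%) by distance to the nearest peak of the lists that lack the region (bp, log scale). Each line is the regions open in 1 list alone, or in aNE and pNE together, and grey lines are the other 8 lists. At 1000 bp the day 2 lines stand at 61.5%, 56.7% and 68.1%, above all grey lines, of which the highest is at 53.7%.

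Day 2 only regions, like regions found in 1 other list alone, were seldom at gene starts. By the median they lay no farther from them than merged regions in general. Of the aNE alone regions 9.05% (7.97 to 10.3) lay within 1 kb of either end of a gene, of the pNE alone regions 8.16% (7.35 to 9.05), and of regions open in both 9.42% (5.59 to 15.5). The share was 11.2% over all regions, 7.73% for those kept on day 4 and 27.1% for those open in all 10 lists. For regions found alone in 1 of the other 8 lists it ran from 6.38% (pNE_M) to 10.0% (hPSC). Within 1 kb of a protein-coding start the shares were 2.13%, 1.18% and 1.52%, against 3.89% of all regions and 16.3% of those open in all 10 lists. Regions found alone in 1 of the other 8 lists stood between 0.783% (pNE_M) and 1.97% (hPSC). Both kinds of share depend on width, and the members were narrow. The median distance to such a start was 50700 bp for aNE alone, 69600 bp for pNE alone and 61200 bp for both, against 69600 bp for all regions. Starts were taken from the promoter windows, which 15101 of the 19126 protein-coding genes (79.0%) had, so a distance to a start can be too long and a share near starts too low, for members and other regions alike. Between 46.4% and 54.3% of the members lay inside a protein-coding gene, as did 51.0% of all regions.

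Members met 23 of the 17261 promoter windows with a peak in any list, and the genes they reached have varied roles. How many of all merged regions meet such a window was not counted, so no share stands beside these numbers. In the aNE alone group 10 of the 2431 regions reached a window. Of these, 5 covered a gene start: LACTBL1, SHTN1, SCHIP1, STRA6 and LMX1B, a LIM homeobox factor of the midbrain and limb. The pNE alone group also had 10, which met 12 windows of 11 genes. Here 3 starts were covered, those of NCR2, LRRTM2, a postsynaptic adhesion protein, and INHBB, a subunit of activin B. STRA6 has 5 listed starts, SCHIP1 6 and SHTN1 2, and whether their other starts had peaks was not read. The STRA6 region ran from 47 bases before 1 of these starts across the start base. It was 1433 bp from any peak of the other 8 lists, whereas the LMX1B region, at chr9:126613821-126613945, had one 293 bp away. SSTR1, a somatostatin receptor, had its pNE alone region 46 bp from such a peak. CTAGE6 and PTPN20, also in the pNE alone group, lie in duplicated sequence, where reads from copies can be shared. How such reads were treated is not given in the sources used here.

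The 23 promoter windows that members met were poorer in CpG than promoter windows with a peak in any list. Their median GC content was 59.7% and they held a median of 7 CpG, against 65.0% and 25 in the 17261 windows with a peak in any list. Windows with no peak in any list had 46.7% and 3. The rule takes only regions that the other 8 lists lack, and whether the lower CpG number follows from that choice was not tested. Over all 300 bases, the windows printed in part above ran from 48.0% GC at SLC11A2 to 69.3% at SHTN1. The INHBB window, at 88.7% GC with 58 CpG, was the richest of the 23.

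Some aNE alone members lay in tandem repeats. The bases printed in capitals for SHTN1 are copies of a 28-base unit, ggggcatgcgtgctaggaggcgaggcga, which ran without a mismatch for 253 bases of the window, or 9.04 copies. When the whole window was set against itself at that distance, 86.8% of bases were the same. The ADPRHL1 window was 68.0% the same at a distance of 34 bases. Likeness of at least 60%, over distances of 5 to 100 bases, was found in 2 of the 23 windows (8.70%) and in 0.255% of all 21156. A similar case was met by way of microRNA genes, whose hairpins overlapped a merged region in 356 of 1461 cases and a member in 3, all in the aNE alone group. That is 0.843% of the 356, while members were 1.37% of all merged regions. The hairpin of MIR4737, at chr17:60043025-60043105 on the minus strand, lay partly in a wide aNE alone region of 613 bp, chr17:60042477-60043089, inside HEATR6. It was 71.1% the same at a distance of 36 bases, and 14 of the 1461 hairpins reached 60% over distances of at least 20 bases. The hairpin (bases inside the peak in capitals) and its mature product (seed, bases 2 to 8, in capitals) are shown for this repeat, from RefSeq. The measure was chosen after the sequences were seen, and the part of repeats in the membership of these regions was not tested.
MIR4737 hairpin: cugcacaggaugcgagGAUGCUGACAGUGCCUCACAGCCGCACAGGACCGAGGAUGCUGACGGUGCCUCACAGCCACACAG
hsa-miR-4737: aUGCGAGGaugcugacagug

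Short motifs were searched for on both strands of the 23 windows. The nuclear receptor motif AGGTCA was in 4 windows (17.4%), against 11.9% of all promoter windows. STRA6 had it 2 times, read as TGACCT: outside the peak from 180 bases before the gene start, and inside the peak from 22 bases before it, where a match to the SOX motif ACAAAG, read as CTTTGT, overlapped it from 18 bases before the start. The E box CAGCTG was in 6 windows (26.1%), against 18.1% of all, but inside the peak at NCR2 alone, and 2 of the 6 are overlapping CTNNA1 windows. ACAAAG was in 4 (17.4%), against 13.6%. The AP-1 motif TGANTCA (N is any base) and CACGTG were at 8.70% each, against 6.08% and 8.25%. Some motifs were below their share of all windows, with ACAAT at 17.4% against 21.4%, the TEAD motif GGAATG at 8.70% against 12.2% and the OTX motif TAATCC at 4.35% against 5.48%. In windows with a peak in any list, these last shares were 17.4%, 11.4% and 4.62%. There AGGTCA stood at 10.3%, CAGCTG at 18.0%, ACAAAG at 12.1%, TGANTCA at 4.87% and CACGTG at 9.01%. AGGTCA also lay inside the peak at NCR2, SCHIP1 and SLC22A7. The letters of the POU motif ATGCAAAT, the homeobox motif TAATTA, the HOX with PBX motif TGATTGAT, the ETS motif CCGGAAGT, the CTCF motif and the direct repeats of AGGTCA with spacers of 1, 2 or 5 bases were not in these windows. These are matches of letters in a small number of windows.

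The widest members outside chromosome 8 lay between 12342 bp (MYO16) and 706118 bp (CADM1) from the nearest protein-coding start in the promoter table. Such a distance can be too long, since not every gene has a start in that table. The CADM1 region lay inside that gene and 119271 bp from an end of it. In the pNE alone group the widest was chr10:129916154-129916786, 633 bp inside EBF3, a transcription factor of differentiating neurons, and 47488 bp from its nearest start. It was followed by chr4:48543844-48544352 inside FRYL (509 bp) and chr7:34022362-34022860 inside BMPER, which encodes a BMP-binding protein (499 bp). In the aNE alone group the widest was the HEATR6 region of 613 bp named above, followed by chr16:57427511-57428075, 112 bp from an end of CIAPIN1 (565 bp), and chr1:184249361-184249908, 137121 bp from an end of C1orf21 (548 bp). Among regions open in both lists the widest were chr7:48141338-48141892, near ABCA13 (555 bp), chr11:115384645-115385144 inside CADM1, a cell adhesion gene (500 bp), and chr13:108616800-108617269 inside MYO16 (470 bp). All 9 were between 783 and 3460 bp from the nearest peak of the other 8 lists.

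Most genes with a member of a group had 1 of that group. Each group had fewer members than there were genes, so low counts per gene follow in part from the totals. Over all merged regions, 5.11 per 1000 were aNE alone, 8.34 pNE alone and 0.290 open in both. By nearest gene end, 2045 of the 19126 protein-coding genes had an aNE alone region, and 1732 of them had 1. The corresponding numbers were 2941 and 2217 for pNE alone, and 136 and 134 for both. TENM3, a teneurin of neuronal wiring with 599 merged regions of its own, had 5 aNE alone and 9 pNE alone regions. PTPN13, a tyrosine phosphatase, had 5 aNE alone regions among 39. TRIM32, FBXW8 and the surface ectoderm factor GATA3 had 4 each, among 115, 44 and 169, and GATA3 also had 2 pNE alone regions. In the pNE alone group KLHL29 had 8 among 270, beside 1 aNE alone region. ASB3, CDC73, which encodes a subunit of the PAF1 complex, and the deacetylase HDAC4 had 6 each, among 182, 192 and 238. CDC73 also had 1 region open in both lists. Genes with many merged regions have more chances to hold a member, and these counts were not tested. The transporter gene ABCC4 had 2 of the regions open in both lists and 4 aNE alone regions among 118, and ADGRL2, a latrophilin, had 2 of each of the both and pNE alone kinds among 428. The remaining genes ranked in the both group, FBLL1, LOC124905368 and LOC124903319, had 1 each.

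The genes of the pathways that the media act on were then read by list. The window of a gene was the gene itself with 50 kb added on either side. Over all 19126 protein-coding genes 16.4% had an aNE alone region in the window, 21.4% a pNE alone region and 0.972% a region open in both. Windows differ in how many merged regions they hold, so each list is also given per 1000 regions, where all genes stood at 5.90 for aNE alone and 8.13 for pNE alone. Genes with overlapping windows share regions. The lists were short, and none of the differences from these values was tested.

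In the retinoic acid list, 4 of 20 genes had an aNE alone region (4.11 per 1000) and 7 a pNE alone region (8.21 per 1000), the latter near the value for all genes. RARB, a receptor whose gene is itself a retinoic acid target, had 2 pNE alone regions, chr3:24886183-24886393 and chr3:25396960-25397168, and 1 aNE alone region. These were among 194 merged regions in its window. The receptor partners RXRA and RXRB had 1 pNE alone region each, and RXRA had 1 aNE alone region. The pNE alone region of RXRA lay 47872 bp outside the gene and touched a peak of the other 8 lists. Its aNE alone region lay 34009 bp outside the gene and 49 bp from such a peak. CYP26A1 and CYP26C1, neighbouring genes for enzymes that break down retinoic acid, shared a pNE alone region, chr10:93078888-93079031. CYP26B1, of the same family, instead had an aNE alone region 635 bp outside the gene, chr2:72148497-72148642. At STRA6 the aNE alone region was the promoter one printed above. TGM2, a retinoic acid responsive transglutaminase, had a region open in both.

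In the FGF list 3 of 20 genes had an aNE alone region (5.41 per 1000) and 4 a pNE alone region (8.12 per 1000). FGFR2, a receptor, had 3 pNE alone regions inside the gene, between 20046 and 35456 bp from its nearest start. Its window held 70 merged regions. The feedback inhibitor SPRY1 had 2 aNE alone regions among 26 merged regions, and the ligand FGF8 had 1 among 25. In the WNT list 3 and 4 of 21 genes had regions, at 4.22 per 1000 for either group. AXIN1, a scaffold of the complex that degrades beta-catenin, and the transcription factor TCF7L1 had 1 region of each kind. TCF7L2 had 2 aNE alone regions among 113 merged regions.

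Anterior factors had an aNE alone region at 5 of 19 genes (8.76 per 1000) and a pNE alone region at 3 (5.25 per 1000). OTX1, a forebrain and midbrain homeobox gene, had its aNE alone region, chr2:63049474-63049625, 110 bp outside the gene. EMX2 and VAX1, both forebrain homeobox genes, had 1 region of each kind, and the aNE alone region of VAX1 is the repeat-bearing one at the SHTN1 start. FEZF1, a forebrain zinc finger gene, had a region open in both lists. Posterior factors had aNE alone regions at 6 of 24 genes (5.43 per 1000) and pNE alone regions at 5 (4.53 per 1000). At the HOXA cluster an aNE alone region, chr7:27152356-27152483, fell in the windows of HOXA2, HOXA3 and HOXA4, and a pNE alone region lay at chr7:27189318-27189441. HOXB1 and HOXB2 also shared 1 aNE alone region. EGR2, a factor of hindbrain segments, and the nuclear receptor NR2F2 had 1 pNE alone region each.

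Neural factors had aNE alone regions at 4 of 19 genes (7.97 per 1000) and pNE alone regions at 6 (9.11 per 1000). LIN28B, an RNA-binding protein of early progenitors, had 3 aNE alone regions among 73 merged regions. The neural cadherin CDH2 had 2 aNE alone regions among 61. ZNF521, a zinc finger driver of neural fate, had 1 aNE alone and 2 pNE alone regions among 97. Of the 15 pluripotency factors none had an aNE alone region and 2 a pNE alone region (6.64 per 1000). CRIPTO had 2 among 31 merged regions and ESRRB 1 among 93. These 15 windows hold 452 merged regions in all.

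Targets of the signals that the media block, and markers of other cell types, were also read. NODAL and BMP targets had aNE alone regions at 2 of 14 genes (4.68 per 1000) and pNE alone regions at 3 (7.03 per 1000). The inhibitory SMAD6 had 1 of each, BMP4 had an aNE alone region and ID2 a pNE alone region. Markers of surface ectoderm and neural crest stood at 3 and 4 of 15 genes (6.98 and 10.5 per 1000). GRHL3, an epidermal factor, had 3 pNE alone regions among 47 merged regions, and TFAP2B had 1 of each kind. GATA3 had an aNE alone region 424 bp from its nearest start and a region open in both. Mesendoderm markers stood at 2 and 1 of 11 genes (9.68 and 3.23 per 1000). MSGN1 had 2 aNE alone regions among 27 merged regions, GATA6 had 1, and TBXT had 1 pNE alone region. The 2 highest aNE alone values, for mesendoderm and anterior genes, thus rest on few regions, and the mesendoderm one on 3.

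**Figure D5:**
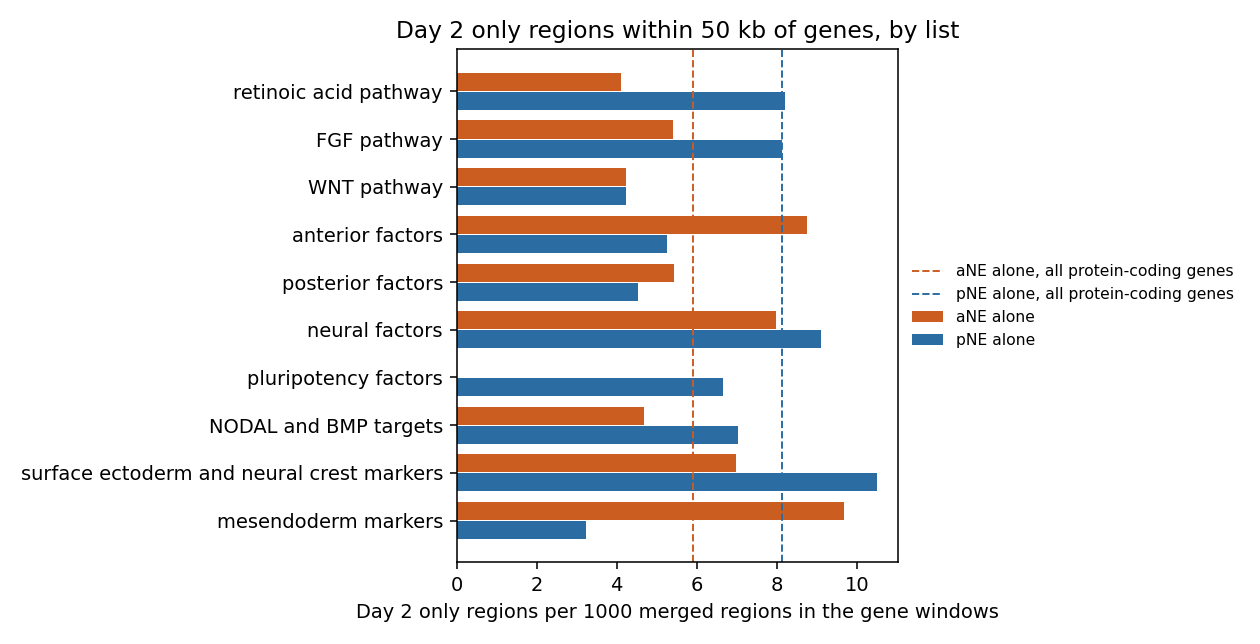
Day 2 only regions per 1000 merged regions in gene windows, by gene list, for aNE alone and pNE alone. Dashed lines are the values for all protein-coding genes, 5.90 and 8.13. Bars scatter on both sides of their lines, from 0 to 9.68 for aNE alone and from 3.23 to 10.5 for pNE alone.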

How the data were processed

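OmniATAC-seq was described for 30 libraries in 10 populations. The authors deposited 1 peak list per population, with sequence name, start and end as the only columns and a position in bp as the unit. Each list was assigned to the population it is named for. Per the submitters' processing notes, FastQC, Bowtie2, MACS2, bedtools, featureCounts, edgeR and deepTools were used, with the build hg38. Their roles, settings and versions, the peak threshold and the way replicates were combined are not given in the sources used here. A threshold that differed between lists would move every count. Members and gene lists were chosen with earlier results of these data known.

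Merging, openness, distances and Wilson intervals were computed with Python 3.11.15, numpy 2.4.6, pandas 2.3.3 and scipy 1.17.1. All but the intervals were checked on 20000 simulated regions, where 0 calls differed, with distances compared for a part of them. The simulated regions lay well apart, so narrow gaps between regions were not tried. Figures used matplotlib 3.10.9. Gene ends and promoter windows came from RefSeq (GRCh38.p14), with promoter windows matched for 15101 of 19126 protein-coding genes and none on chromosome 8. TDGF1 was matched as CRIPTO. Listed genes outside chromosomes 1 to 22 were not used.

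The genes named were, for each of the 10 lists, the 3 with most members in the window, the 5 with most members by nearest gene end in each group, the 3 widest members outside chromosome 8 and the 3 largest promoter overlaps. Other names were added after values were seen: STRA6, ADPRHL1, SCHIP1, LMX1B, LRRTM2, INHBB, SSTR1, PTPN20, MIR4737, CYP26A1, CYP26B1, CYP26C1, TGM2, FEZF1, HOXA2, HOXA4, HOXB1 and HOXB2.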

Additional observations from a re-analysis of the deposited data

Results flagged for a closer look

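Chromosome X lies outside the rule, and the lists also held day 2 only regions there, which none of the comparisons used. By the same merging, 90 of 16790 regions on chromosome X were open in aNE alone, 115 in pNE alone and 10 in both. Per 1000 regions this was 5.36, 6.85 and 0.596, against 5.11, 8.34 and 0.290 on chromosomes 1 to 22. No list serves as a control for these numbers.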

How the results depend on the processing

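Every number of members follows the settings, and without replicate values none of the changes could be tested. Where a list had to cover at least 50% of a region, 2964 regions were aNE alone, 4669 pNE alone and 218 both. With only the wider 50% of each list they were 932, 1589 and 71. With lists cut to the size of the shortest they were 6008, 3940 and 409, and the ratio of pNE alone to aNE alone regions, 1.63 (1.55 to 1.72) as deposited, turned to 0.656. That cut kept every aNE peak, since aNE is the shortest list, and removed the narrowest peaks of the others. Members were narrow, so the higher aNE alone number follows in part from the cut. With day 2 peaks of at least 300 bp they were 93, 79 and 18, and the ratio turned to 0.849. More than 1 kb from peaks of the other 8 lists they were 952, 1730 and 44, with a ratio of 1.82. With the wider 50% of each list, where every list loses its narrow peaks, the ratio was 1.70. The ratio of 0.849 rests on 93 and 79 regions. So which group was the larger differed between settings, and the reason was not tested. The share of members within 1 kb of a gene end, 8.52% (7.86 to 9.22), was 11.1% with 500 bp windows, 9.47% for the peaks of at least 300 bp and 6.38% away from other peaks.

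The shares of list regions found nowhere else were 2.83% (aNE) and 3.49% (pNE) with 50% cover, 1.42% and 1.91% with merging across gaps of up to 100 bp, 1.20% and 1.69% with 500 bp windows, 1.18% and 1.64% for the wider 50%, and 3.95% and 2.57% at equal length. Adding chromosomes X and Y gave 1.60% and 2.12%. The 2 day 2 lists had the lowest shares of the 10 in all of these except at equal length. No paired analysis was possible because the lists carry no value per replicate, and for the same reason no replicate could be left out. The motif search planned for whole regions was left out for want of a genome sequence here. Read depth and peak scores are unknown, so a region without a peak was not measured to be closed.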

Other observations

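Members were found on every chromosome from 1 to 22, at unequal density. Per 1000 merged regions the aNE alone group ran from 4.49 on chromosome 9 to 6.23 on chromosome 11. The pNE alone group ran from 5.85 on chromosome 16 to 9.75 on chromosome 8, and stood at or below 6.80 on chromosomes 15, 16, 17, 19, 20 and 22. Regions open in both ran from 0 on chromosome 22 to 0.466 on chromosome 16, from at most 18 regions a chromosome. In the aNE alone group 5 of the 10 widest lay on chromosome 8, which holds 5.39% of that group. Of the 10 widest pNE alone regions 0 did, and of the 10 widest open in both 2. Of 26486 windows of 100 kb with a merged region, 5599 held a member, 718 held 2 and 106 held 3 or more. The fullest, in TENM3, held 5, of which 4 were pNE alone.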
